A study of Mus musculus with 2 samples.

Results

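The 9 genes described here, Ezh2, Ezh1, Eed, Suz12, Bmi1, Dnmt1, Dnmt3a, Uhrf1 and Hells, encode core Polycomb proteins and the DNA methylation machinery, and they were chosen by symbol from the 31053 genes counted. Mammary luminal cells were sorted by FACS from FVB/NJ mice aged 3.5 months. The WT group carried Sox9-GFP alone and the C3-TAg group carried Sox9-GFP together with C3-TAg, so both groups share the Sox9 reporter allele. Each group is 1 library of the droplet 3′ assay, the labels do not say how many mice went into it, and no difference between the groups has a replicate check. The name C3-TAg is in common use for a transgene in which a prostatic C3(1) promoter drives the SV40 T antigens. The large T antigen binds p53 and the Rb proteins. The T antigen transcript was not analysed here.

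Polycomb repressive complex PRC2 methylates a lysine of histone H3 and keeps developmental genes silent. Its catalytic subunit is either Ezh2, known from dividing cells, or Ezh1, known from resting tissues, and both need Eed, which reads the mark, and Suz12, which holds the complex together. Bmi1 belongs to PRC1, which ubiquitinates histone H2A. Dnmt1 copies DNA methylation onto newly made strands, Uhrf1 brings Dnmt1 to those strands, Dnmt3a sets new methylation, and Hells is a chromatin remodeller that DNA methylation needs. Ezh2, Dnmt1, Uhrf1 and Hells are known targets of E2F factors, which the Rb proteins hold in check.

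After filtering, 7039 WT and 7917 C3-TAg cells were kept, with medians of 10294 and 8683 UMIs per cell. The deposited barcodes of the libraries shared 20 sequences, of which 19 were kept in WT and 18 in C3-TAg. Cells with at least 5 UMIs of Areg, Pgr, Esr1 and Cited1 per 10000 were called hormone-sensing, which gave 2718 WT and 2024 C3-TAg cells and left 4321 and 5893 other cells. In the other cells, 4 WT and 2191 C3-TAg cells were cycling, that is, had at least 5 UMIs of Mki67, Top2a, Cdk1 and Ccnb1 per 10000. All 4 luminal keratin and Epcam markers exceeded 20 CPM (counts per 1000000 UMIs of the class) in every class compared, and over all cells immune markers summed to 3.70 CPM (WT) and 5.17 CPM (C3-TAg) and endothelial markers to 5.34 and 3.82 CPM. Fibroblast markers summed over all cells to 249.6 CPM (WT) and 37.5 CPM (C3-TAg). In hormone-sensing cells they summed to 703 and 139 CPM, with 1 of the 5 genes past 20 CPM in each library. Basal markers, 7 genes led by Krt14 and Krt17, summed in other cells to 84.2 CPM in the WT and 702 CPM in the C3-TAg library. The part of fibroblast and basal markers in the results was not tested.

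The hormone-sensing label held in WT but not throughout C3-TAg. Of the C3-TAg cells past the cut, 566 (28.0%) had under 2 UMIs of Pgr, Esr1 and Cited1 per 10000 and passed mainly through Areg, against 85 (3.13%) in WT. In C3-TAg these cells had 641 CPM of Krt17, 583 CPM of the prolactin receptor gene Prlr and 39.8% cycling cells, whereas the other 1458 had 16.8 CPM of Krt17, 1910 CPM of Prlr and 1.03% cycling cells. Each hormone-sensing result is therefore given for all cells past the cut and for those with the receptor genes, 2633 in WT and 1458 in C3-TAg, a class defined after the data were seen.

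The promoters are shown because the members moved with the cell cycle to different extents, Ezh2 and Uhrf1 the most and Ezh1 the least. Sequences are from RefSeq on GRCm38.p6 and run 5′ to 3′ towards the gene's start. Capitals mark the E2F words TTTCCCGC, TTTCGCGC, TTTGCCGC and TTTGGCGC and the pentamer CCAAT, which NF-Y binds, on either strand. Stretches that annotated exons cover were left out except for 30 bases around an E2F word.
Suz12, chr11:79992856-79993105, plus strand, upstream of the gene: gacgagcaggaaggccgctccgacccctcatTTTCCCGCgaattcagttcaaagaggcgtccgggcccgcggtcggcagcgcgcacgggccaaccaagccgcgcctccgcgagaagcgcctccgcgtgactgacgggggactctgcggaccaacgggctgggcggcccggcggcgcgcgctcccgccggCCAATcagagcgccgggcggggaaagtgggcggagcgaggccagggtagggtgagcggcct
Uhrf1, chr17:56304063-56304312, plus strand, inside the annotated gene but outside its exons, from 1 of 2 promoter entries: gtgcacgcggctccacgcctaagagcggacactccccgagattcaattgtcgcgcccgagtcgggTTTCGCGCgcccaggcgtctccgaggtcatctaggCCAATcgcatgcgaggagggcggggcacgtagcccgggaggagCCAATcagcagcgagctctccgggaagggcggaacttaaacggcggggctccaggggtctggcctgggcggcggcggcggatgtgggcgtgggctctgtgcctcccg
Hells, chr19:38930917-38930946, plus strand, in an annotated exon: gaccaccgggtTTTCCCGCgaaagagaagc
Dnmt1, chr9:20952824-20952853, minus strand, in an annotated exon, from 1 of 3 promoter entries: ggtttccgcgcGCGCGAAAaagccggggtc
Ezh2, chr6:47595059-47595183, minus strand, outside annotated exons: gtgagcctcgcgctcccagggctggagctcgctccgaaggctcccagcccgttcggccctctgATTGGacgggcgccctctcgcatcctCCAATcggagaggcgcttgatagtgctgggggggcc
Ezh1, chr11:101226464-101226713, minus strand, upstream of the gene: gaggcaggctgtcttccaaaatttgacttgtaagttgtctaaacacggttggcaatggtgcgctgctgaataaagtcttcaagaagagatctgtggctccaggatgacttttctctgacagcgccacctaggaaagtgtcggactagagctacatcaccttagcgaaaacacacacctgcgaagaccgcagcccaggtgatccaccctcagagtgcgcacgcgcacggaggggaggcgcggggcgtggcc
All 9 members had a promoter entry, and some had several. In the 250 bases before a start, an E2F word was present in 4 members, Suz12, Uhrf1, Hells and Dnmt1, and in 2.16% of all 27025 genes with an entry. CCAAT was present in 4 members, Ezh2, Suz12, Dnmt1 and Uhrf1, and in 37.5% of all genes, a share near that of the members. The windows of Ezh1, Bmi1, Dnmt3a and Eed held neither. A match is a description of letters, and factor binding was not measured.

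In other cells, the luminal cells without the hormone-sensing genes, 6 of the 9 members had a C3-TAg level at least 1.5 times that of WT and none was lower by that size. Of all 13977 genes with at least 20 UMIs in this comparison, 42.9% were higher and 10.0% lower, so the count of members alone stands only moderately above the background, and the size of the differences is what sets some members apart. The median ratio of all measured genes was 0.47 above 0 on the log2 scale, and edgeR's TMM scaling, which assumes that most genes do not differ, moved all ratios by -0.43. The median of the members was 1.14 on the same log2 scale before and 0.72 after TMM, where 5 members remained past 1.5-fold against 24.0% of genes.

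Among the PRC2 genes, Ezh2 differed most. It had 1565 UMIs in WT and 7905 in C3-TAg other cells, or 30.4 and 130 CPM, a ratio of 4.27 (95% interval of counting error 4.05 to 4.51) that was 3.18 under TMM. Ezh1, the alternative catalytic subunit, had 8.79 CPM in WT against 10.4 CPM in C3-TAg, a ratio of 1.19 (1.05 to 1.34) that turned to 0.882 under TMM. The 2 catalytic genes thus parted, one several-fold higher and the other near its WT level. Suz12 had 45.2 CPM in WT against 99.8 CPM in C3-TAg, a ratio of 2.21 (2.10 to 2.32). Eed had 24.4 and 47.2 CPM, a ratio of 1.94 (1.81 to 2.07) that was 1.44 under TMM. Bmi1, the PRC1 member, had 13.6 and 18.7 CPM, a ratio of 1.38 (1.25 to 1.51), or 1.02 under TMM.

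Of the DNA methylation genes, Dnmt3a differed least. Dnmt1, which maintains methylation, had 58.4 CPM in WT against 157 CPM in C3-TAg other cells, a ratio of 2.69 (2.58 to 2.80), or 2.0 under TMM. Dnmt3a, which sets new methylation, had 21.3 and 29.0 CPM, a ratio of 1.36 (1.26 to 1.47), or 1.01 under TMM. Dnmt3b, the other enzyme that sets new methylation and no member of the 9, had 4.58 CPM in WT against 8.93 CPM in C3-TAg, a ratio of 1.95 (1.67 to 2.28), or 1.45 under TMM. Uhrf1 and Hells were close to undetected in WT and abundant in C3-TAg. Uhrf1 had 33 UMIs over the 4321 WT cells, 0.640 CPM, against 4496 UMIs and 73.8 CPM in C3-TAg, a ratio of 115 (81.9 to 168). Hells had 151 UMIs in WT, 2.93 CPM, against 8994 UMIs and 148 CPM in C3-TAg, a ratio of 50.4 (42.9 to 59.6).

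**Figure D1:**
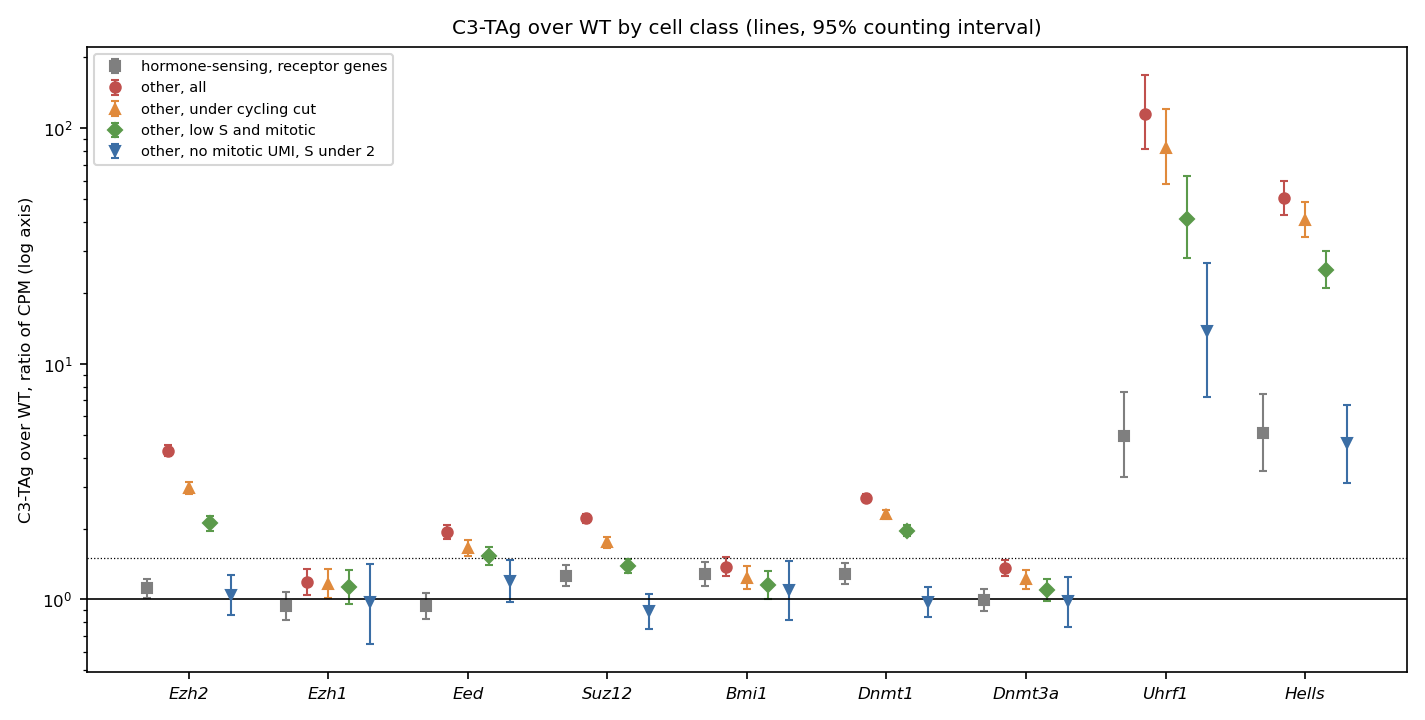
Ratio of C3-TAg to WT (log axis) of each member gene in the cell sets named in the legend, with exact 95% intervals of counting error. In all other cells Uhrf1 (115) and Hells (50.4) lie far above the rest and Ezh1 (1.19), Bmi1 (1.38) and Dnmt3a (1.36) lie closest to 1.

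The same contrast appeared in the share of cells with a UMI once each cell was thinned to 2000 UMIs. Among other cells Ezh2 was detected in 6.36% in WT and in 21.6% in C3-TAg, and Dnmt1 in 10.2% and 24.9%. Uhrf1 was found in 5 WT cells, 0.12%, and in 12.8% of C3-TAg other cells, and Hells in 0.60% and 22.5%. Ezh1 was found in 1.97% and 1.96%. The first 4 genes were thus detected in a larger share of cells, and for Ezh1 the shares were the same to within counting error. Free RNA can give UMIs in cells that do not express a gene, and the C3-TAg hormone-sensing cells with receptor genes, at a median of 7783 UMIs against 9275 in other cells, held Uhrf1 in 1.31% and Hells in 1.72% of cells after the same thinning.

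Cycling cells make up 37.2% of the C3-TAg other cells, so the members were followed across the cell cycle within that library. In cycling against non-cycling cells 4 of 9 members were at least 1.5-fold higher, against 18.2% of all genes (2 of 9 under TMM, against 11.8%). Uhrf1 had 51.1 CPM in non-cycling and 104 CPM in cycling cells, a ratio of 2.04 (1.92 to 2.16). Ezh2 had 90.1 and 183 CPM, a ratio of 2.03 (1.94 to 2.12). Suz12 had 78.6 and 128 CPM, a ratio of 1.63 (1.55 to 1.71), and Hells had 117 and 189 CPM, a ratio of 1.62 (1.56 to 1.69). These are the 4 members past the fold, 2 PRC2 genes and the pair Uhrf1 and Hells. Eed and Dnmt1 both had ratios of 1.41, and Bmi1 and Dnmt3a both had 1.27. Ezh1 had 10.3 CPM in non-cycling and 10.6 CPM in cycling cells, a ratio of 1.03 (0.879 to 1.21), so its interval spans 1.

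Graded by the sum of the 4 mitotic genes, the members took different shapes. Ezh2 stood at 68.2 CPM in the 1576 C3-TAg other cells with no mitotic UMI and at 84.3, 118, 152 and 213 CPM in the classes above 0, from 2, from 5 and from 10 UMIs per 10000. Suz12 went from 59.3 to 144 CPM and Dnmt1 from 107 to 198 CPM over the same classes. Each of these climbed at every step. Uhrf1 went from 22.0 to 46.2, 85.8 and 107 CPM and was then at 101 CPM, and Hells went from 75.2 to 113, 163 and 194 CPM and was then at 184 CPM. These 2 genes thus stopped climbing at the top class, whose 1119 cells have the most mitotic transcripts. Dnmt3a went up at every step, from 24.2 (21.6 to 27.1) to 33.7 (30.7 to 37.0) CPM, and Bmi1 went from 14.4 (12.4 to 16.7) to 24.3 (21.7 to 27.1) CPM with 1 step down. Ezh1 stayed between 9.83 and 11.1 CPM in all 5 classes. The mitotic classes are ranges along a score and not cell types, and 293 C3-TAg other cells lie between 4 and 5 and 243 between 5 and 6 UMIs per 10000, either side of the cycling cut.

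**Figure D2:**
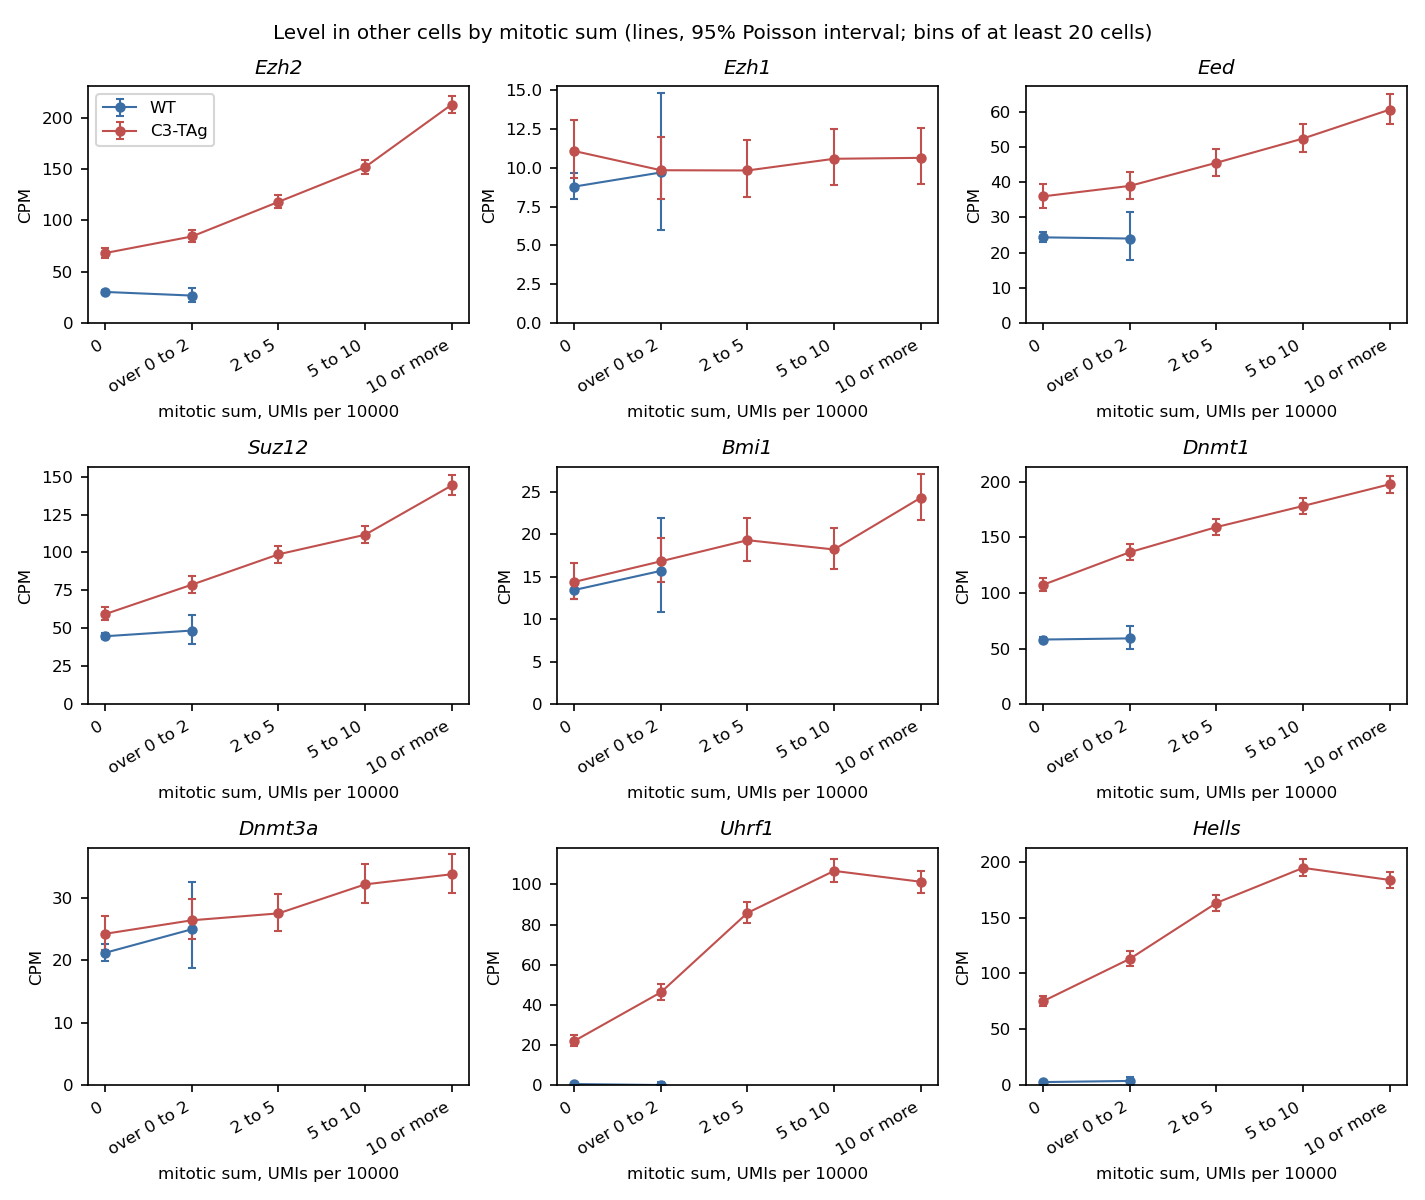
Level of each member (CPM) in other cells of each library by the sum of mitotic-gene UMIs per 10000, with exact 95% intervals of counting error. WT points are drawn only for the classes 0 and over 0 to 2. In C3-TAg, Ezh2 climbs from 68.2 to 213 CPM and Ezh1 is flat between 9.83 and 11.1 CPM.

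Leaving out cycling cells did not remove the difference between the libraries. Under the cycling cut, 6 of 9 members still passed 1.5-fold, against 35.2% of all genes, with Ezh2 at 2.97, Dnmt1 at 2.30, Suz12 at 1.74 and Eed at 1.65 times WT, Uhrf1 at 82.2 times and Hells at 40.8 times. Bmi1 and Dnmt3a, at 1.24 and 1.22, were at 0.952 and 0.937 under TMM. Where the S-phase list (Mcm2 to Mcm7, Pcna and Gins2, genes of DNA replication) was also required to be under 10 UMIs per 10000, 2189 C3-TAg and 4312 WT other cells were left. There 5 of 9 members were higher, against 29.5% of genes, with Ezh2 at 2.10, Dnmt1 at 1.95 and Eed at 1.53 times WT, Uhrf1 at 41.3 times and Suz12 at 1.39.

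Under a stricter requirement, no mitotic UMI and under 2 UMIs of the S-phase list per 10000, 383 C3-TAg and 3743 WT other cells remained, and most members had ratios near 1. Ezh2 had 29.997 CPM in these WT and 31.4 CPM in these C3-TAg cells, a ratio of 1.05 (0.857 to 1.27). Suz12 had 44.2 and 39.5 CPM, a ratio of 0.893 (0.748 to 1.06). Dnmt1 had 57.5 and 56.2 CPM, a ratio of 0.977 (0.843 to 1.13). For these 3 genes the interval spans 1 and excludes the ratios found over all other cells. Ezh1, Eed, Bmi1 and Dnmt3a had ratios of 0.972, 1.20, 1.10 and 0.984. Only 2 of the 9 members stayed past 1.5-fold, against 20% of genes, and both rest on few UMIs. Uhrf1 had 20 UMIs in WT and 22 in C3-TAg, 0.442 and 6.12 CPM, a ratio of 13.8 (7.20 to 26.7), and Hells had 2.41 and 11.1 CPM, a ratio of 4.61 (3.13 to 6.68). Those C3-TAg levels are near the 6.94 CPM of Uhrf1 and 8.47 CPM of Hells in the hormone-sensing cells with receptor genes of the same library, and the part of free RNA was not tested. This class was chosen after the data were seen and is picked on transcripts that move with the members. Shallow cells can reach it more easily. The class had medians of 8857 UMIs in C3-TAg and 11442 in WT, against 9254 and 11306 over all C3-TAg and WT other cells. Its cells still differed otherwise, with Krt14 at 31.5 CPM in WT against 206 CPM in C3-TAg. Its C3-TAg cells also had more casein (milk protein) transcripts, a median of 1.99% of UMIs, than all C3-TAg other cells, at 0.168%. The WT medians were 3.59% and 3.38%, and the part of casein state in these ratios was not tested.

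**Figure D3:**
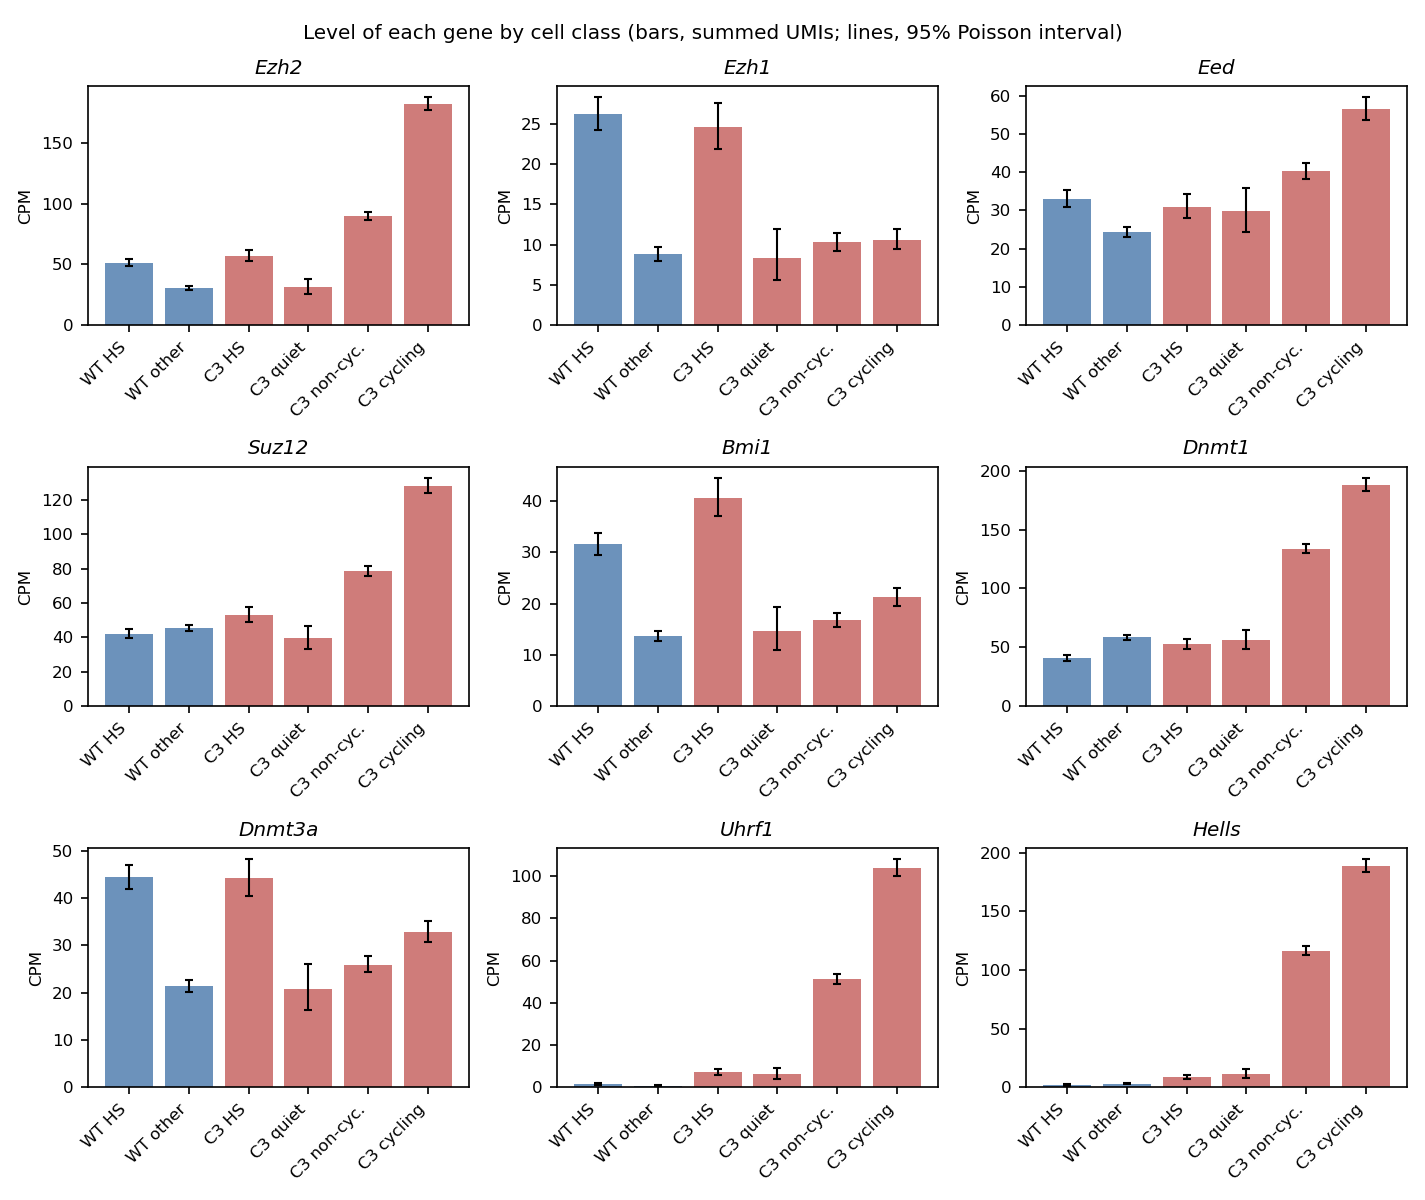
Level of each member (CPM) in 6 cell sets, with exact 95% intervals of counting error; HS is hormone-sensing cells with receptor genes, quiet is other cells with no mitotic UMI and under 2 S-phase UMIs per 10000, non-cyc. and cycling are other cells either side of the cycling cut. For Ezh2 the quiet C3-TAg cells sit at 31.4 CPM beside 30.4 CPM in WT other cells, while cycling C3-TAg cells sit at 183 CPM.

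Because Ezh2 and Ezh1 compete for the same place in PRC2, their UMIs were set against each other as a share of reads, which says nothing of protein. Of the UMIs of both genes, Ezh2 gave 77.6% (75.7 to 79.4) in WT other cells and 92.6% in C3-TAg other cells. Within C3-TAg the share was 79.0% (71.4 to 85.4) in the strictest non-cycling class, 86.5% in cells low in S-phase and mitotic transcripts, 89.8% in all non-cycling and 94.5% in cycling cells. The share climbed with each step towards cycling, and the strictest class did not differ from WT other cells beyond counting error. The hormone-sensing cells with receptor genes were lower, in WT at 66.2% (64.1 to 68.3) and in C3-TAg at 69.9% (66.9 to 72.8). In WT it was 77.6% in casein-low and 77.5% in casein-high cells, whereas in C3-TAg it was 93.5% (92.8 to 94.0) and 89.5% (88.1 to 90.9), intervals that do not overlap.

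**Figure D4:**
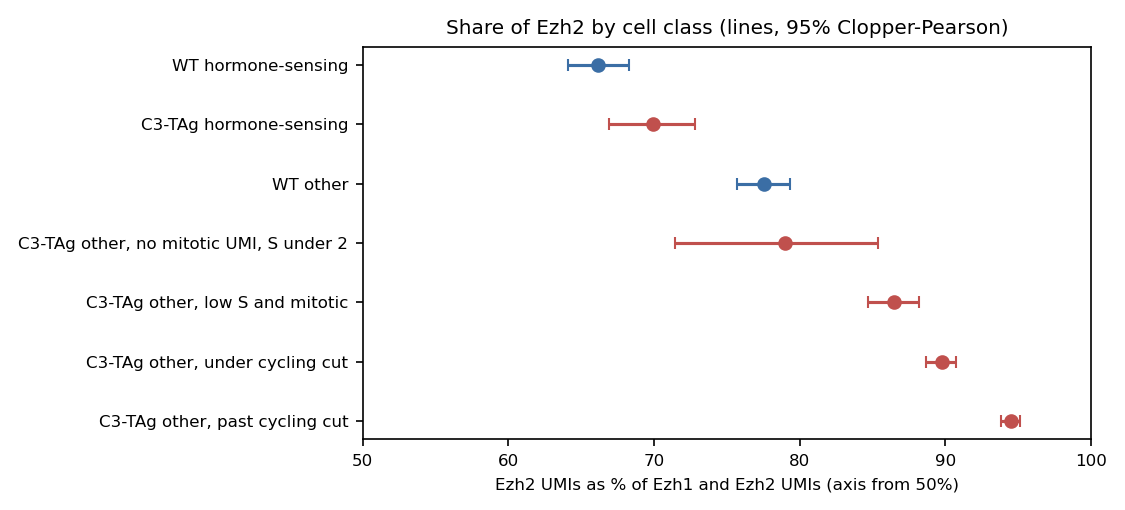
Share of Ezh2 among the UMIs of Ezh1 and Ezh2 (percent) in each cell set, with exact 95% binomial intervals. Of the sets drawn, the share is lowest in hormone-sensing cells (66.2% in WT with receptor genes) and highest in cycling C3-TAg other cells (94.5%).

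Between the hormone-sensing and the other cells of WT, a different set of members stood out. Of the 9 members 5 were at least 1.5-fold higher in hormone-sensing cells, against 37.5% of all genes, and 1 was lower, against 21.1%. Ezh1 had 25.8 CPM in hormone-sensing and 8.79 CPM in other cells, a ratio of 2.93 (2.60 to 3.31), the highest of the 9. Bmi1 had 31.4 and 13.6 CPM, a ratio of 2.31 (2.08 to 2.56), and Dnmt3a had 44.6 and 21.3 CPM, a ratio of 2.09 (1.93 to 2.27). These 3 genes are the ones that moved least with the cell cycle. Ezh2 had 51.9 and 30.4 CPM, a ratio of 1.71 (1.59 to 1.84) that was 1.38 under TMM. Uhrf1, with 37 and 33 UMIs, had a ratio of 2.17 (1.32 to 3.58). Suz12 had a ratio of 0.934, Eed of 1.34 and Dnmt1 of 0.708, and Hells was lower in hormone-sensing cells by 1.73-fold.

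In C3-TAg the same 3 genes stayed higher in hormone-sensing than in other cells. Dnmt1, Suz12 and Hells were under 1 as in WT, and Ezh2, Eed and Uhrf1, above 1 in WT, were below it. Among cells with the receptor genes, 3 of 9 members were higher, against 22.2% of genes, and 6 were lower, against 33.1%. Ezh1 was 2.36 times (2.05 to 2.72), Bmi1 2.17 times and Dnmt3a 1.53 times its level in other cells. Ezh2 was lower by 2.26-fold, Dnmt1 by 2.98-fold, Suz12 by 1.88-fold and Eed by 1.52-fold. Uhrf1 was lower by 10.6-fold and Hells by 17.4-fold. Their ratios were 0.0941 and 0.0573. In the same comparison Krt14 was at 0.0422, Krt17 at 0.0788 and the casein Csn2 at 0.0262. The cycle genes Mki67 and Top2a, also chosen beforehand as yardsticks of free RNA, are not given here. The class also holds 15 cycling cells, and whether the Uhrf1 and Hells levels are expression or free RNA was not tested. Ezh2, Dnmt1, Suz12 and Eed had ratios of 0.442, 0.336, 0.532 and 0.657. Over all cells past the cut the lower counts shrank to 3 of 9, against 24.4% of genes (3 higher, against 19.9%), with Ezh2 at 0.729, Dnmt1 at 0.559, Uhrf1 at 0.449 and Hells at 0.430 times other cells.

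Hormone-sensing cells with receptor genes differed little between the libraries. Only 2 of 9 members, Uhrf1 and Hells, passed 1.5-fold in C3-TAg, against 13.3% of all genes. Uhrf1 had 36 UMIs in WT and 82 in C3-TAg, 1.40 and 6.94 CPM, and Hells 43 and 100 UMIs, 1.67 and 8.47 CPM. As given above, whether these C3-TAg levels are expression or free RNA was not tested. Ezh2 had 51.3 CPM in WT against 57.3 CPM in C3-TAg, a ratio of 1.12 (1.02 to 1.23), and Dnmt3a had 44.4 and 44.3 CPM, a ratio of 0.996 (0.897 to 1.11). Ezh1 had 26.2 and 24.6 CPM, a ratio of 0.940 (0.816 to 1.08), and Eed a ratio of 0.940 (0.829 to 1.06). Suz12, Bmi1 and Dnmt1 had ratios of 1.26, 1.29 and 1.29, each with an interval above 1 and none past the fold. Over all cells past the hormone-sensing cut, 5 of 9 members were higher, against 22.8% of genes, with Ezh2 at 51.9 CPM in WT against 94.6 CPM in C3-TAg, a ratio of 1.82 (1.70 to 1.96), Dnmt1 at 2.13 and Suz12 at 1.67. With the cycling cells among them left out, 3 of 9 members were higher, against 15.6%, and Ezh2 stood at 1.21 times WT.

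Other cells were next split by the caseins, the milk proteins that mark secretory differentiation, at 1% of a cell's UMIs. This gave 930 casein-low and 3391 casein-high cells in WT and 3896 and 1997 in C3-TAg. In C3-TAg, 4 of 9 members were at least 1.5-fold higher in casein-low cells, against 31.0% of genes. Uhrf1 had 96.0 CPM in casein-low and 38.1 CPM in casein-high cells, a ratio of 2.52 (2.34 to 2.71). Ezh2 had 164 and 74.0 CPM, a ratio of 2.22 (2.11 to 2.34), and Hells had 182 and 91.9 CPM, a ratio of 1.98. Suz12 had a ratio of 1.57. Dnmt1 parted from its partner Uhrf1 here, with 170 CPM in casein-low and 137 CPM in casein-high cells, a ratio of 1.24.

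Casein-low cells were also more often cycling, 45.4% against 21.1%, and the difference was also present within either state. Among non-cycling C3-TAg cells Ezh2 had 119 CPM in casein-low and 62.2 CPM in casein-high cells, a ratio of 1.91, with Uhrf1 at 2.31 and Hells at 1.95, and 4 of 9 members passed the fold against 24.8% of genes, the last being Ezh1 at 1.56. Under TMM 3 passed, against 15.6% of genes, and Ezh1 was at 1.29. Among cycling cells Ezh2 had 203 and 110 CPM, a ratio of 1.84, with Uhrf1 at 1.95 and Hells at 1.58, the 3 of 9 members past the fold against 26.5% (2 under TMM, against 18.8%, with Hells at 1.38). Dnmt1 was at 1.19 and 1.05. In WT, where almost no cell cycled, Ezh2 had 39.4 CPM in casein-low and 28.7 CPM in casein-high cells, a ratio of 1.38 (1.21 to 1.56), and Dnmt1 a ratio of 0.933. Only 2 of 9 members passed the fold in WT, against 23.8% of genes, and these were Uhrf1, with 9 and 24 UMIs, and Hells, with a ratio of 1.54 (1.02 to 2.28). The count in WT therefore rests on few UMIs and lies near the background.

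Cdkn2a, which encodes a CDK inhibitor and is a classical Polycomb target, had 0.155 CPM in WT against 60.0 CPM in C3-TAg other cells, and 898 C3-TAg other cells (15.2%) had a UMI of it. Of these, 876 were casein-low. Cells with a Cdkn2a UMI had more Ezh2, with 219 CPM against 112 CPM in cells without, a ratio of 1.95 (1.85 to 2.05). Uhrf1 had 113 and 66.0 CPM, a ratio of 1.72, and Hells 215 and 135 CPM, a ratio of 1.59. These are the 3 of 9 members past the fold, against 23.9% of genes, and 1 stayed past it under TMM. Dnmt1 had a ratio of 1.11 and Ezh1 of 1.18.

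The comparison was repeated within casein-low cells, since Cdkn2a UMIs were almost confined to them. In 355 non-cycling cells with and 1771 without a Cdkn2a UMI, Ezh2 had 179 and 106 CPM, a ratio of 1.69 (1.53 to 1.87), Hells was at 1.67 and Uhrf1 at 1.54, 3 of 9 members against 16.1% of genes. Under TMM these ratios were 1.49, 1.47 and 1.36, so 0 of 9 passed, against 10.1% of genes. In 521 cycling cells with and 1249 without, Ezh2 had 244 and 183 CPM, a ratio of 1.33, and Uhrf1 and Hells were at 1.09 and 1.06, so that 0 of 9 members passed the fold against 11.3% of genes. The excess was thus larger outside cycling cells, a difference that was not tested. The cells with a Cdkn2a UMI also had more S-phase transcripts, with a median of 14.9 against 9.80 UMIs of the list per 10000 among casein-low non-cycling cells. Deeper cells are more likely to show a Cdkn2a UMI, and with cells thinned to 5000 UMIs the ratios in this class were 1.56 for Ezh2, 1.56 for Hells and 1.39 for Uhrf1.

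Across the 11 non-overlapping classes of at least 50 cells, Ezh2 was highest in the cycling cells past the hormone-sensing cut of C3-TAg, at 260.2 CPM, and in cycling casein-low cells with a Cdkn2a UMI, at 244 CPM, a pair that did not differ beyond counting error. It was lowest in casein-high WT cells, at 28.6 CPM. The 260.2 CPM belongs to 240 cells with 13.4 CPM of Pgr and 912 CPM of Krt17, so the hormone-sensing label does not describe them. Ezh1 was highest in WT non-cycling hormone-sensing cells at 25.8 CPM and lowest in casein-high non-cycling C3-TAg cells at 8.1 CPM, and most neighbours in that order did not differ beyond counting error.

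The likeness of 2 genes was measured by Pearson's correlation of log2(CPM + 1) over these 11 classes, which share 2 libraries and therefore are not independent. Uhrf1 and Hells were the closest pair of members, at 0.99, followed by Ezh2 with Suz12 and Ezh2 with Eed, both at 0.97. Ezh1 and Bmi1 reached 0.85 and Ezh1 and Dnmt3a 0.80, whereas Ezh1 and Ezh2 were at -0.02 and Ezh1 and Dnmt1 at -0.43. Among 7696 genes, those most like Hells were Chaf1a, Dscc1, Pole2, Dtl and Mcm5, and those most like Dnmt1 were Gins3, Stil, Pola1, Ncapg2 and Cdc25a. Those most like Uhrf1 were Diaph3, Rfc3, Slfn9, Nup43 and Zfp367, and those most like Suz12 were Mtbp, Slbp, Dek, Kif23 and Supt16. Chaf1a, Pole2, Mcm5, Pola1 and Rfc3 are replication genes. Ezh2 was most like Ipo9, Ddx52, Nup93, Cbx5 and Serbp1, at 0.993 or 0.994, and Eed was most like Tbc1d31, Ska2, Pitrm1, Cep295 and Smc6. The nearest genes to Ezh1 were AI413582, Ahnak2, Plcb4, Plod1 and Dguok, to Bmi1 Rnf213, Cad, Arfgef3, Lamc1 and Ppme1, and to Dnmt3a Zmynd11, Acbd6, Pacsin2, Ptbp3 and Limch1. Many genes reached values as high, so a place in these lists is a description.

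The partners of the members in the same pathways differed by a smaller median, 0.94 on the log2 scale for PRC2 accessory genes and 0.99 for PRC1 genes, against 1.14 for the members and 0.47 for all genes. Between C3-TAg and WT other cells, 5 of 8 PRC2 accessory genes were at least 1.5-fold higher and 14 of 19 measured PRC1 genes, against the 42.9% of all genes given above, and under TMM 4 of 8 and 8 of 19 were, against 24.0%. Rbbp4, a histone chaperone of PRC2, had 58.9 CPM in WT against 181 CPM in C3-TAg, a ratio of 3.07. Rbbp7, its close relative, had 107 and 247 CPM, a ratio of 2.32, and Mtf2, which helps PRC2 onto DNA, had 31.4 and 76.9 CPM, a ratio of 2.45. Of the PRC1 genes, Cbx6, a reader of the PRC2 mark, had 6.54 and 20.04 CPM, a ratio of 3.06, and Pcgf5, which takes the place of Bmi1 in variant PRC1, had 38.3 and 90.4 CPM, a ratio of 2.36. Mark removal genes gave 3 of 5, with Kdm6a, a demethylase of the PRC2 mark, at 1.59, and its relative Kdm6b at 0.84. Under TMM these 3, Kdm6a, Asxl1 and Asxl2, fell below the fold, at 1.18, 1.28 and 1.25. Kdm6b was then at 0.628, past the fold as lower, so this count depends on the scaling.

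The counts for the DNA methylation genes, the methyl-CpG readers and the imprinted genes are read against the same shares over all genes, 42.9% higher and 10.0% lower, and stand near them. Of 6 measured genes 3 were higher in C3-TAg, none of them under TMM, and Tdg, which excises oxidised methylcytosine, had 15.8 CPM in WT against 27.4 CPM in C3-TAg, a ratio of 1.73. Among 6 methyl-CpG readers 2 were higher, with Mbd3 at 75.7 and 125 CPM, a ratio of 1.65. None of 10 germline genes that DNA methylation silences reached 20 UMIs over both libraries, and of 18 loci known as Polycomb-marked 6 did, of which 5 were higher in C3-TAg, Cdkn2a among them. Of 12 measured imprinted genes 4 were higher and 2 lower, and Nnat was the most reduced, at 56.5 CPM in WT against 6.19 CPM in C3-TAg.

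Between hormone-sensing and other WT cells, 8 of 19 PRC1 genes were higher and 3 lower, close to the 37.5% and 21.1% of all genes. Tet3 and Kdm6b are given as examples. In WT, Tet3, an enzyme that oxidises methylcytosine, had 50.9 CPM in hormone-sensing and 103 CPM in other cells, a ratio of 0.494. Kdm6b had 388 and 144 CPM, a ratio of 2.70. Among hormone-sensing cells with receptor genes, Tet3 had 50.2 CPM in WT against 102 CPM in C3-TAg, a ratio of 2.03. In the same cells Kdm6b had 392 and 205 CPM, a ratio of 0.522. The other cells of C3-TAg had 79.4 CPM of Tet3 and 122 CPM of Kdm6b. Within C3-TAg, the Tet3 level was thus the larger in hormone-sensing cells, but by less than 1.5-fold, whereas in WT it was lower there. Kdm6b was higher in hormone-sensing cells, as in WT.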

How the data were processed

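The authors deposited whole-number UMI counts per gene and barcode, and the submitters' processing notes name Cell Ranger 3.1.0 and the build mm10. The counts were not normalized, and the sources used here do not give strand handling. Whether reads of Suz12, Ezh2, Eed and Dnmt3a were kept apart from those of their antisense neighbours was therefore not checked. Eed and Dnmt1 also overlap a gene on their own strand. Barcodes with under 500 genes, under 1000 UMIs or over 10% mitochondrial UMIs were left out, and Scrublet in scanpy 1.11.5 removed 367 of 7406 WT and 541 of 8458 C3-TAg cells. Counts were summed per class and given as CPM with exact 95% Poisson intervals, ratios with conditional Poisson and shares with Clopper-Pearson intervals. With 1 library per group no test was made, and intervals cover counting error only. Higher or lower means 1.5-fold among genes with at least 20 UMIs over both classes. TMM factors came from edgeR 4.0.16 on R 4.3.3, and all else from Python 3.11.15 with numpy 2.4.6, scipy 1.17.1 and pandas 2.3.3. The ratio script was tested on simulated data. Promoters and motifs came from RefSeq tables of GRCm38.p6. The 9 members are named in every comparison, and of the wider lists measured genes past 1.5-fold with at least 20 CPM in a group, given by examples; Kdm6b in the comparison of other cells and Dnmt3b were named after their values were seen. For likeness, the 5 highest correlations per member are named. The members and lists were chosen with earlier results of these data known.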

Additional observations from a re-analysis of the deposited data

Results flagged for a closer look

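For 3 members the difference between hormone-sensing and other cells of one library ran opposite to that of the other library, and the difference between the libraries was not tested. Ezh2 was at 1.71 times the level of other cells in WT hormone-sensing cells and at 0.729 times in C3-TAg. Eed was at 1.34 times in WT and 0.814 times in C3-TAg. Uhrf1 was at 2.17 times in WT, on 37 and 33 UMIs, and at 0.449 times in C3-TAg. In each case the other cells of C3-TAg were the class that stood higher, and with receptor genes required the C3-TAg ratios were 0.442, 0.657 and 0.0941.

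Ezh1 was at 0.855 times WT in C3-TAg hormone-sensing cells and at 1.19 times WT in C3-TAg other cells, opposite directions whose difference was not tested. The second ratio was 0.882 under TMM, so the opposition depends on the scaling.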

How the results depend on the processing

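No paired analysis was possible because each group is 1 library, and for the same reason no replicate could be left out. Of 1035 ratios of members under other settings, 820 stayed within their counting interval, 212 moved beyond it and 3 turned over a called direction. Those 3 are among 35 ratios that lay on the other side of 1 from the main setting. The number of members at least 1.5-fold higher changed by more than 1.5 times in the following cases. Under TMM it was 2 for cycling cells, 1 for casein-low WT cells, 1 for cells with a Cdkn2a UMI and 20 for the wider lists (36 without, with 6 lower). For casein-low WT cells it was 1 with casein and mitochondrial UMIs out of the total, 1 with called doublets kept and 0 in cells thinned to 2000 UMIs, where Uhrf1 turned to 0.919. For hormone-sensing cells between the libraries it was 3 at a cut of 10 UMIs per 10000 and 2 with receptor genes required. For other cells it was 2 in the strictest non-cycling class, where Suz12 was at 0.893 and Dnmt1 at 0.977. Those last 2 class choices were made after the data were seen. The number of members at least 1.5-fold lower also moved. For hormone-sensing against other C3-TAg cells it was 3, but 5 in cells thinned to 2000 UMIs, 5 at a cut of 10 and 6 with receptor genes required. For the same contrast in WT it was 1, but 2 under TMM and 0 with called doublets kept. For the wider lists it was 2, but 5 for genes with any UMI and 1 for genes with at least 200 UMIs. The share of C3-TAg other cells with an Ezh2 UMI was 42.0% at 5000 UMIs and 59.5% without thinning. The planned filter on fibroblast, endothelial and immune markers removed mostly hormone-sensing cells with Dcn. Of 121 counts, those of lower members not included, 109 stayed within 1.5 times of the value given. Depth limits Uhrf1 and Hells in WT, and 1 library per group limits every comparison.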

Other observations

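Mbd4, a glycosylase that reads methylated CpG, had 33 UMIs in WT and 902 in C3-TAg other cells, a ratio of 23.1, and Phf19, a PRC2 accessory gene, had 3 and 123 UMIs, a ratio of 34.7. Both lie under the level set for naming genes of the wider lists and were chosen after their values were seen. In the strictest non-cycling class Mbd4 had 25 of 45204717 UMIs in WT and 7 of 3595902 in C3-TAg. Its share was thus still the higher in C3-TAg, on few UMIs. Phf19 had 1 UMI in each of these classes, too few to compare.

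Among casein-low against casein-high non-cycling C3-TAg cells, 9 of 19 PRC1 genes were at least 1.5-fold higher, against 24.8% of all genes, and 3 of 19 under TMM, against 15.6%. Without TMM Phc3 was at 1.94, Pcgf5 at 1.80, Phc2 at 1.66, Rnf2 at 1.61 and Pcgf6 at 1.58, and of these 5 all but Phc3 were under 1.5 with it. Phc2 and Phc3 encode the subunits that let PRC1 polymerise, and Rnf2 the ubiquitin ligase.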
